A study of Mus musculus with 3 samples.

Results

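The 10 genes described here mark spermatogonia and the early germline: Zbtb16, Id4, Etv5, Dmrt1, Stra8, Uchl1, Sall4, Nanos3, Ddx4 and Dazl. They were taken by symbol from the 26124 genes of each matrix, and each symbol had 1 row. Single-cell 3′ RNA counts came from 3 mouse libraries with 1 library a group, so that no spread between animals is known and no test was run. The KO testis library is from an adult goGermline animal in which Tsc22d3 was knocked out. The chimera cauda library is from a Tsc22d3 knockout complemented with mouse induced pluripotent stem cells, and its line is given as Pax7-nGFP iPS x goGermline. A goGermline Tsc22d3 knockout was also the source of the KO cauda library. Both cauda samples, from the part of the epididymis where sperm are held, were aspirated through the skin, and the host of the chimera carries the same knockout as the KO animals. No testis of another genotype was analysed here.

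Spermatogenesis is kept up by undifferentiated spermatogonia, which renew themselves or differentiate in answer to retinoic acid and then enter meiosis. Zbtb16, Id4, Etv5, Sall4 and Nanos3 are known from the undifferentiated state, Stra8 from the retinoic acid response and the start of meiosis, and Ddx4 and Dazl from germ cells of many stages. Sertoli cells nurse the germ cells and share some of these genes, among them Dmrt1 and Etv5.

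Values are CPM, the counts of a gene's unique molecular identifiers (UMIs, 1 per captured RNA molecule) scaled to the UMI total of a library or cell class. Intervals are at 95% and cover counting error only: those of a level are exact Poisson, those of a share are Clopper-Pearson, and those of a ratio are conditional binomial. A count of 0 allows up to 3 UMIs. The KO testis held 134795047 UMIs in 18108 barcodes, the chimera cauda 5395856 in 214502 barcodes with a UMI, and the KO cauda 41862286 in 3937 barcodes. Tsc22d3 itself was read at 6.05 CPM (5.65 to 6.48) in the KO testis, 22.8 CPM (18.9 to 27.2) in the chimera cauda and 10.8 CPM (9.85 to 11.9) in the KO cauda. A 3′ tag outside the deleted part checks nothing, and where the deletion lies is not given in the sources used here.

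The cauda libraries share barcodes. All 3937 barcodes of the KO cauda were also barcodes of the chimera cauda, and they held 58.8% of the chimera UMIs. Of the 222 chimera barcodes with at least 500 UMIs, 125 were such shared barcodes. The UMI totals of a shared barcode in the chimera and in the KO cauda had a Spearman correlation of 0.86 over the 3937 barcodes, given as a description. Chimera values are therefore given below with and without the shared barcodes. The KO testis shared 14 barcodes with the KO cauda and 1350 with the chimera cauda, where those 1350 held 0.213% of the UMIs, and 0 of its germ-like cells below were kept cells of either cauda library.

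The promoter windows of 4 of the genes are shown because their levels divide: Stra8, Ddx4 and Dazl were found mostly in germ-like cells, and Uchl1 in germ-like and Sertoli-like cells. The windows run from 250 bases before to 50 bases after the RefSeq start site on GRCm38.p6, 5′ to 3′ on the strand of the gene. Of the 10 genes, 7 had an entry in the table. Capitals mark the letters searched for on both strands: CACGTG, an E-box, TCCCGC or GCGGGA, an E2F6-type motif, and AGGTCA or TGACCT, a half-site of retinoic acid receptors.
Stra8: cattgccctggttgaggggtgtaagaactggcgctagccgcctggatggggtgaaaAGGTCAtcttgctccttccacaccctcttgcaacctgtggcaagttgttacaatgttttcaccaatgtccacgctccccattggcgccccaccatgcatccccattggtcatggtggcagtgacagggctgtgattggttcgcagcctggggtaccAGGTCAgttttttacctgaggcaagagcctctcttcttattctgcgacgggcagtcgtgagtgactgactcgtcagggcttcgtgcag
Ddx4: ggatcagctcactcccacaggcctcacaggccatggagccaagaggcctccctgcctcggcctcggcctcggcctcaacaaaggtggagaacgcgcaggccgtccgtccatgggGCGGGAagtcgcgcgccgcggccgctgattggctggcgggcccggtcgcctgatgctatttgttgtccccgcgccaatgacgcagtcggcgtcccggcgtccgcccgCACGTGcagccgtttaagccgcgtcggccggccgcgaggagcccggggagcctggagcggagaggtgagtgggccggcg
Dazl: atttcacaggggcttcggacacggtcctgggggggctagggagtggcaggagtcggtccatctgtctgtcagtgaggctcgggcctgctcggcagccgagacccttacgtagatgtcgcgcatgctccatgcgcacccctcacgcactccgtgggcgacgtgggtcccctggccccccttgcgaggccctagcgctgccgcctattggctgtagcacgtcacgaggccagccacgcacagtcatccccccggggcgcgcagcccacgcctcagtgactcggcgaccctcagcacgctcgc
Uchl1: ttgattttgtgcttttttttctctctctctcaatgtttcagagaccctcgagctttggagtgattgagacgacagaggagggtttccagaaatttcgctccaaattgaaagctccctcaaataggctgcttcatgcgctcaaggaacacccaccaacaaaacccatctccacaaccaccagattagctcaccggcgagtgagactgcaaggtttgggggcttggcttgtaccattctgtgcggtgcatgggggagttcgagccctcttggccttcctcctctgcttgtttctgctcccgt
The Stra8 window (chr6:34920698-34920997, plus strand) held the retinoic acid receptor half-site at positions 57 and 213, counted from 1 at its 5′ end. The Ddx4 window (chr13:112652261-112652560, minus strand) held 1 E2F6-type motif at position 115 and 1 E-box at position 222. The windows of Dazl (chr17:50293571-50293870, minus strand) and Uchl1 (chr5:66675871-66676170, plus strand) held none of these letters. Of all 32851 promoter windows, 16.3% held the half-site, 19.98% the E2F6-type motif and 7.15% the E-box. The windows held 10 CpG dinucleotides for Stra8, 38 for Ddx4, 28 for Dazl and 9 for Uchl1, against a median of 7 over all windows. A match of letters is a description and says nothing of a factor that binds there.

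In the KO testis 57 of 12169 kept cells (0.468%, 0.355 to 0.606) formed a germ-like class, which was found without the 10 genes. The class raised 27 of 30 germ cell markers at least 2-fold, and its 57 cells held between 4273 and 58731 UMIs, with a median of 19703. The 30 markers summed to 5824.5 CPM in germ-like cells and 25.7 CPM in the other 12112 cells. Of those 30 markers, 3 had 0 UMIs in germ-like cells: Pgk2, Acrv1 and Prm1, of late spermatocytes and spermatids, named after their values were seen. The testis also held Sertoli-like, Leydig-like and peritubular myoid or smooth muscle-like cells, with 1174, 3247 and 1889 cells. The 3426 kept cells of the KO cauda were mainly B lymphocyte-like (1911) and macrophage-like (973), and the 184 of the chimera cauda held 87 macrophage-like cells and 2 unnamed clusters.

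Of the 10 genes, 7 were at least 4-fold higher in germ-like cells than in the other cells, and 1, Etv5, at least 4-fold lower. This fold was the rule of size throughout, for genes with more than 3 UMIs on the higher side. Over all 14850 genes measured, 15.4% were past the rule as higher and 15% as lower. The median log2 ratio was 4.59 over the 10 genes and 0.39 over all genes measured. The 7 genes were Dazl, Ddx4, Stra8, Sall4, Dmrt1, Uchl1 and Nanos3. Zbtb16 and Id4 were not past the rule in either direction.

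Dazl (ENSMUSG00000010592, chromosome 17, 50279395 to 50293636 on GRCm38) encodes an RNA-binding protein that germ cells need for entry into gametogenesis. It had 1622 UMIs in germ-like cells and 299 in all others. Its level was 1385 CPM (1318 to 1454) in germ-like cells and 3.203 CPM in the others, a ratio of 432 (382 to 491). Single germ-like cells held between 4 and 75 UMIs of Dazl, with a median of 24. It was the only one of the 10 genes seen in all 57 germ-like cells, which held 84.4% of its UMIs.

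Ddx4 (ENSMUSG00000021758, chromosome 13, 112598333 to 112652475), the VASA RNA helicase of germ cells, stood at 228 CPM (201 to 257) in germ-like cells and 0.353 CPM in the others. The ratio was 645 (448 to 956). It was seen in 51 of 57 germ-like cells, with a median of 3 and a highest value of 30 UMIs, and in 32 of 12112 others. With germ-like cells defined by at least 3 germ cell markers, 103 cells, the level was 149.9 CPM for Ddx4, 223 CPM for Stra8 and 18.4 CPM for Id4. The next class in order, Sertoli-like cells, had 1.04 CPM (0.475 to 1.97), which its interval does not set apart from the peritubular class at 0.375 CPM.

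Stra8 (ENSMUSG00000029848, chromosome 6, 34920163 to 34939344), which retinoic acid induces before meiosis, had 400 UMIs in germ-like cells and 13 in the others. The level was 341 CPM (309 to 377) in germ-like cells and 0.139 CPM in the others, a ratio of 2452 (1418 to 4646). It was seen in 50 of 57 germ-like cells, up to 29 UMIs in 1 cell, and 96.8% of its UMIs lay there. Leydig-like cells, the deepest large somatic class, had 0 UMIs of Stra8 in 51325618.

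Sall4 (ENSMUSG00000027547, chromosome 2, 168748332 to 168767943), a zinc finger factor of undifferentiated and differentiating spermatogonia, had 72 UMIs in germ-like cells and 5 in the others. The levels were 61.5 CPM (48.1 to 77.4) and 0.0536 CPM, a ratio of 1148 (470 to 3641). Sall4 was seen in 27 of 57 germ-like cells, with at most 8 UMIs in 1 cell. Of the genes known from undifferentiated spermatogonia it was the one whose UMIs lay mostly in the germ-like class, at 93.5%.

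Zbtb16 (ENSMUSG00000066687, chromosome 9, 48654297 to 48836222), the PLZF repressor of spermatogonial stem cells, had 47.0 CPM (35.4 to 61.1) in germ-like cells and 21.5 CPM in the others. The ratio was 2.18 (1.64 to 2.85). It was seen in 19 of 57 germ-like cells, with up to 10 UMIs. In kept cells 73.2% of its UMIs lay in Leydig-like cells, where the level was 29.4 CPM (28.0 to 30.9), beside 31.2 CPM (27.4 to 35.3) in the peritubular myoid or smooth muscle-like class. These 2 somatic levels do not differ beyond their intervals.

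Id4 (ENSMUSG00000021379, chromosome 13, 48261228 to 48266026), an inhibitor of helix-loop-helix factors that marks spermatogonial stem cells, had only 9 UMIs in germ-like cells. Its level there was 7.68 CPM (3.51 to 14.6), against 9.48 CPM in the others, a ratio of 0.811 (0.369 to 1.55). The highest level was in the 143 pericyte-like cells, at 153 CPM (121 to 191) from 78 UMIs. Sertoli-like cells at 46.2 CPM (41.8 to 50.9) and the peritubular class at 44.5 CPM (40.04 to 49.4) came next and overlap. The Sertoli-like, peritubular and pericyte-like classes held 44.7%, 39.8% and 8.72% of its UMIs in kept cells. Genes A330033J07Rik and Gm49291 lie over it on the other strand in GENCODE M21 and are not rows of the matrices, and the strand setting of the counting is not given in the sources used here.

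Etv5 (ENSMUSG00000013089, chromosome 16, 22381309 to 22439719), an ETS factor that answers GDNF and FGF in spermatogonia and acts in Sertoli cells, was lowest in germ-like cells of all 13 classes. There it had 5 UMIs in 5 cells, 4.27 CPM (1.39 to 9.96), against 35.6 CPM in the others, a ratio of 0.120 (0.0390 to 0.280). Fibroblast-like cells were highest at 55.6 CPM (51.2 to 60.3), and from there down to Leydig-like cells at 31.2 CPM each class overlapped the next. With doublets kept the germ-like level was 10.3 CPM, and with germ-like cells defined by at least 3 germ cell markers it was 19.499 CPM, neither of which is past the rule against the 35.6 CPM given above. The germ-like interval overlapped that of endothelial-like cells, at 10.4 CPM (5.53 to 17.8).

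Nanos3 (ENSMUSG00000056155, chromosome 8, 84173731 to 84185217), an RNA-binding factor that protects early germ cells and marks a share of spermatogonia, was rare. It had 12 UMIs in 7 germ-like cells, 10.2 CPM (5.29 to 17.9), against 1.60 CPM in the others, a ratio of 6.42 (3.24 to 11.6). As a mean over cells of each cell's CPM the levels were 6.85 in germ-like cells and 3.52 in the others, which is not past the rule. Pericyte-like cells at 9.84 CPM (3.19 to 23.0) and the peritubular class at 8.26 CPM (6.39 to 10.5) overlapped the germ-like level. Fibroblast-like cells had 5.26 CPM (3.97 to 6.83), and the peritubular and fibroblast-like classes held 41.0% and 34.8% of its UMIs. Sertoli-like cells had 0 UMIs, which allows up to 0.346 CPM. The microRNA genes Mir181c and Mir181d lie within this gene on the same strand, and reads of their transcript could not be told apart from those of Nanos3.

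Dmrt1 (ENSMUSG00000024837, chromosome 19, 25505618 to 25604329), a factor that holds spermatogonia back from meiosis and keeps Sertoli cell identity, was read in 2 classes. It stood at 151 CPM (130 to 175) in germ-like cells, against 5.56 CPM in the others, a ratio of 27.2 (22.8 to 32.3). Sertoli-like cells followed at 58.6 CPM (53.6 to 64.0) and held 73.0% of its UMIs. Of the other 11 classes 6 had 0 UMIs, and the remaining 5 had between 1 and 4.

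Uchl1 (ENSMUSG00000029223, chromosome 5, 66676091 to 66687234), a ubiquitin hydrolase used as a marker of spermatogonia, stood at 763 CPM (714 to 815) in germ-like cells, against 35.8 CPM in the others, a ratio of 21.3 (19.8 to 22.9). It was seen in 51 of 57 germ-like cells, with up to 62 UMIs. Sertoli-like cells had 345 CPM (333 to 358) and endothelial-like cells 86.3 CPM (70.8 to 104), and these 3 levels do not overlap. The antisense gene Uchl1os lies over Uchl1 and Gm14261 over Sall4, neither of which is a row of the matrices.

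**Figure D1:**
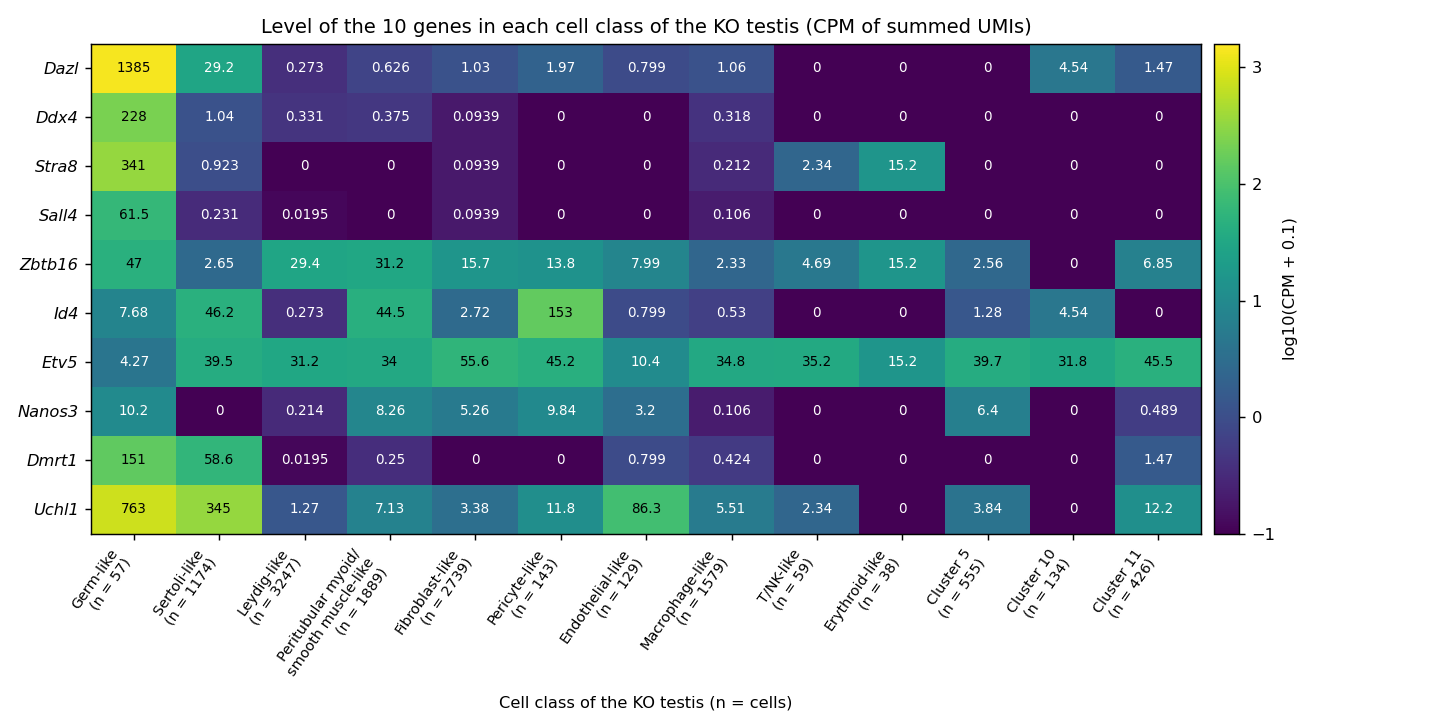
CPM of the 10 genes (rows) in the 13 cell classes of the KO testis (columns, with the number of cells), on a colour scale of log10(CPM + 0.1), with the CPM printed in each cell and 0 for no UMI. Dazl, Ddx4, Stra8 and Sall4 stand out in the germ-like column, at 1385, 228, 341 and 61.5 CPM, while Etv5 is lowest there at 4.27 CPM and Id4 peaks in pericyte-like cells at 153 CPM. The 15.2 CPM of Stra8 in erythroid-like cells is 1 UMI.

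The stage of the germ-like cells was read from lists of other genes. These lists share genes with the 30 germ cell markers that named the class, so their counts are not independent of the naming. All 17 measured genes of meiotic entry and prophase were at least 4-fold higher in germ-like cells, with a sum of 4275 CPM (4158 to 4395) in germ-like cells and 40.7 CPM in the others, and a median log2 ratio of 8.64. Sycp3, Smc1b, Sycp1 and Tex15, of the chromosome axis, cohesin, synaptonemal complex and recombination, had 790, 785, 646 and 643 CPM in germ-like cells. All 4 are among the 30 markers. Differentiating spermatogonia were represented by 9 of 11 genes past the rule, with 1013 CPM in germ-like cells and 311 CPM in the others. Crabp1, Sohlh1 and Prss50 were among the 9, at 173, 123 and 121 CPM in germ-like cells, and Ccnd2 was not, at 172 CPM in germ-like cells and 107 CPM in the others.

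Of 10 measured genes of undifferentiated spermatogonia 7 were higher and 1 was lower, but their sum was 119 CPM (99.8 to 140) in germ-like cells, against 122 CPM in the others. A single gene, Zbtb7a, made up 10528 of the 11379 UMIs of the list in the other cells. Lin28a and Rhox10, both of spermatogonia, had 35.0 and 14.5 CPM in germ-like cells. Zbtb7a, a zinc finger repressor, was the one that was lower, at 15.4 CPM in germ-like cells and 113 CPM in the others. All 15 piRNA pathway and germ granule genes were higher, at 1659 CPM in germ-like cells and 21.9 CPM in the others, with Mov10l1, Tex101, Mael and Gtsf1 leading. Mov10l1, Tex101 and Mael are among the 30 germ cell markers as well. Spermatid genes summed to 15.4 CPM (9.11 to 24.3) from 18 UMIs in germ-like cells, with 7 of 11 at 0. In the others the sum was 5.09 CPM. Of 4 measured, 1 was higher: Tnp1, itself one of the 30 markers, from 6 UMIs in 5 germ-like cells. Spaca1 made up 10 of the 18 UMIs, at 8.54 CPM in germ-like cells and 27.5 CPM in Sertoli-like cells.

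Pachytene genes were higher for 5 of 7 measured, with 370.5 CPM (336 to 407) in germ-like cells and 58.2 CPM in the others. A single gene, Mael, which is also one of the 30 germ cell markers, made up 232 of the 434 UMIs of the list in germ-like cells. The sum moved with the filters on barcodes. It was 804 CPM with a mitochondrial limit of 10%, 787 CPM with at least 1000 UMIs and 723 CPM with doublets kept. Among barcodes removed as doublets, 39 carried at least 5 of the 30 germ cell markers. Their pachytene sum was 1237 CPM (1158 to 1320), with Ldhc, a lactate dehydrogenase of spermatocytes, at 274 CPM and Piwil1, a piRNA-binding protein, at 176 CPM, against 5.98 and 12.8 CPM in the germ-like class. The 39 barcodes held 907 UMIs of the pachytene list and the 57 germ-like cells 434. Ldhc and Mael, with 201 and 129 of the 907, are among the 30 markers that picked these barcodes, so their levels are not independent of that choice. Piwil1, with 129, is not a marker. Hspa2 held the largest part of the 907, at 276, and is not a marker either. In kept cells it was not past the rule, at 47.0 CPM in germ-like cells and 37.9 CPM in the others. Its highest class was the peritubular one, at 158 CPM. Leydig markers summed to 5284 CPM in the 39 barcodes and 1303 CPM in germ-like cells, and their part in these levels was not tested.

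Those 39 barcodes carried the 10 genes as well. Dazl had 1067 CPM (993 to 1144) there and was seen in all 39, Ddx4 had 217 CPM (184 to 253) and Uchl1 367 CPM (324 to 413). Stra8 stood at 85.9 CPM (66.0 to 110) in them, against 341 CPM (309 to 377) in the germ-like class. Dmrt1 had 73.7 CPM (55.3 to 96.1), against 151 CPM (130 to 175). The Ddx4 intervals of the 39 barcodes and the 57 cells overlap, whereas those of Dazl, Stra8, Uchl1 and Dmrt1 do not, each being lower in the removed barcodes. Etv5 went the other way without overlap, at 23.2 CPM (13.5 to 37.1) in the removed barcodes and 4.27 CPM (1.39 to 9.96) in germ-like cells. Id4 was 24.6 CPM (14.55 to 38.8) and 7.68 CPM (3.51 to 14.58), which barely overlap. The intervals of Zbtb16, Sall4 and Nanos3 overlap.

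Within the 57 germ-like cells the share of the 17 meiotic genes ran from 7.69 to 230 UMIs per 10000, with a median of 33.8. The cells were ordered by this share and split into 3 sets of 19, a split chosen after the data were seen. Median depth was 21961 UMIs in the set with the lowest share, 25669 in the middle set and 10353 in the set with the highest, so that depth moves with the order, and its part was not tested. Over all 57 cells the Spearman correlation of the share with the UMI total was -0.45.

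Zbtb16 and Sall4 were read in cells of low and middle meiotic share. Sall4 had 49 UMIs in the lowest set, 23 in the middle and 0 in the highest, and was seen in 15, 12 and 0 cells. Zbtb16 had 35, 20 and 0 UMIs, seen in 11, 8 and 0 cells. With the 0 taken as 3 UMIs and no error on the other count, the highest set was at least 8.90-fold lower than the lowest for Sall4 and at least 6.35-fold lower for Zbtb16. By Poisson intervals the lowest set was at 76.8 to 137 CPM for Sall4 and 51.7 to 103 CPM for Zbtb16. The highest set reached up to 14.4 CPM for each. With every cell thinned to 4000 UMIs, each of them was seen in 4 of 19 cells of the lowest set and 0 of 19 of the highest, so that at equal depth few cells carry the difference.

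Uchl1 and Dmrt1 were low in the highest set but present. Uchl1 stood at 867 CPM (785 to 955) in the lowest set, 989 CPM in the middle and 183 CPM (134 to 243) in the highest, and the highest set over the lowest was 0.211 (0.153 to 0.286). Thinned to 4000 UMIs, Uchl1 was seen in 18, 19 and 8 of 19 cells. Dmrt1 had 187 CPM (150 to 230), 169 CPM and 54.5 CPM (29.8 to 91.4) in the same order, a ratio of 0.292 (0.153 to 0.517). In the 8 cells of highest meiotic share Dmrt1 had 0 UMIs in each cell and Uchl1 at most 2.

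Dazl and Stra8 did not share that direction. Dazl was 1284.5 CPM (1184 to 1391) in the lowest set, 1265 CPM in the middle and 1775 CPM (1616 to 1945) in the highest, a ratio of 1.38 (1.22 to 1.56). Stra8 was 256 CPM (213 to 306), 346 CPM and 490.4 CPM (409 to 584), a ratio of 1.91 (1.48 to 2.47). It was uneven, since 15 of the 19 cells of the highest set carried it and 1 had 29 UMIs. Of the 8 cells of highest share, 1 held 12 UMIs of Stra8 and the others at most 3 each. The sum of the set thus does not show a rise to the end of the order. Over all 57 cells the Spearman correlation with the meiotic share was 0.16 for Stra8 and 0.36 for Dazl. For Ddx4 the interval of the ratio, 0.775 (0.559 to 1.06), includes 1. Nanos3 had 9, 3 and 0 UMIs, while Id4 and Etv5 had between 1 and 5 in each set, too few to order.

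**Figure D2:**
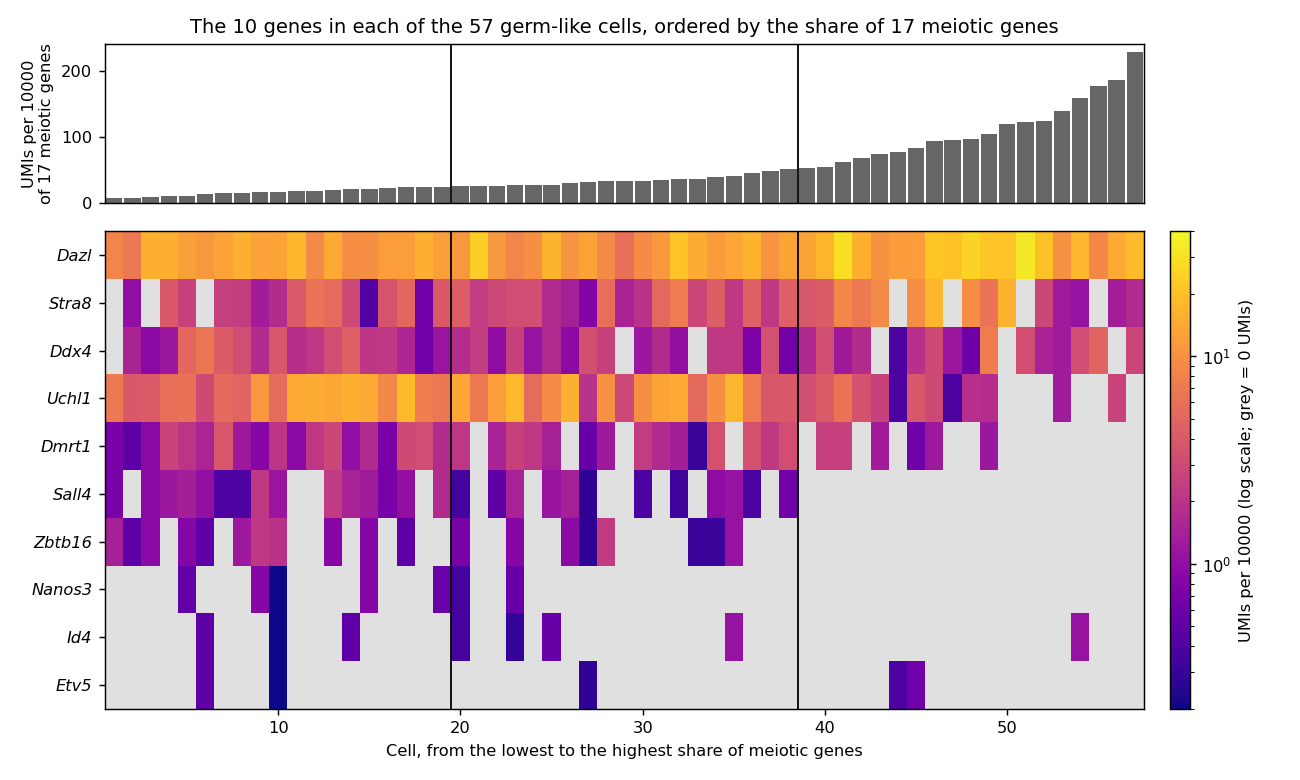
Each column is 1 of the 57 germ-like cells, ordered from the lowest to the highest share of 17 meiotic genes (bars, UMIs per 10000). The colour gives the UMIs per 10000 of each of the 10 genes on a log scale, grey marks 0 UMIs, and vertical lines divide the 3 sets of 19. Dazl is coloured in all 57 columns, while Zbtb16 and Sall4 are grey in the last 19.

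**Figure D3:**
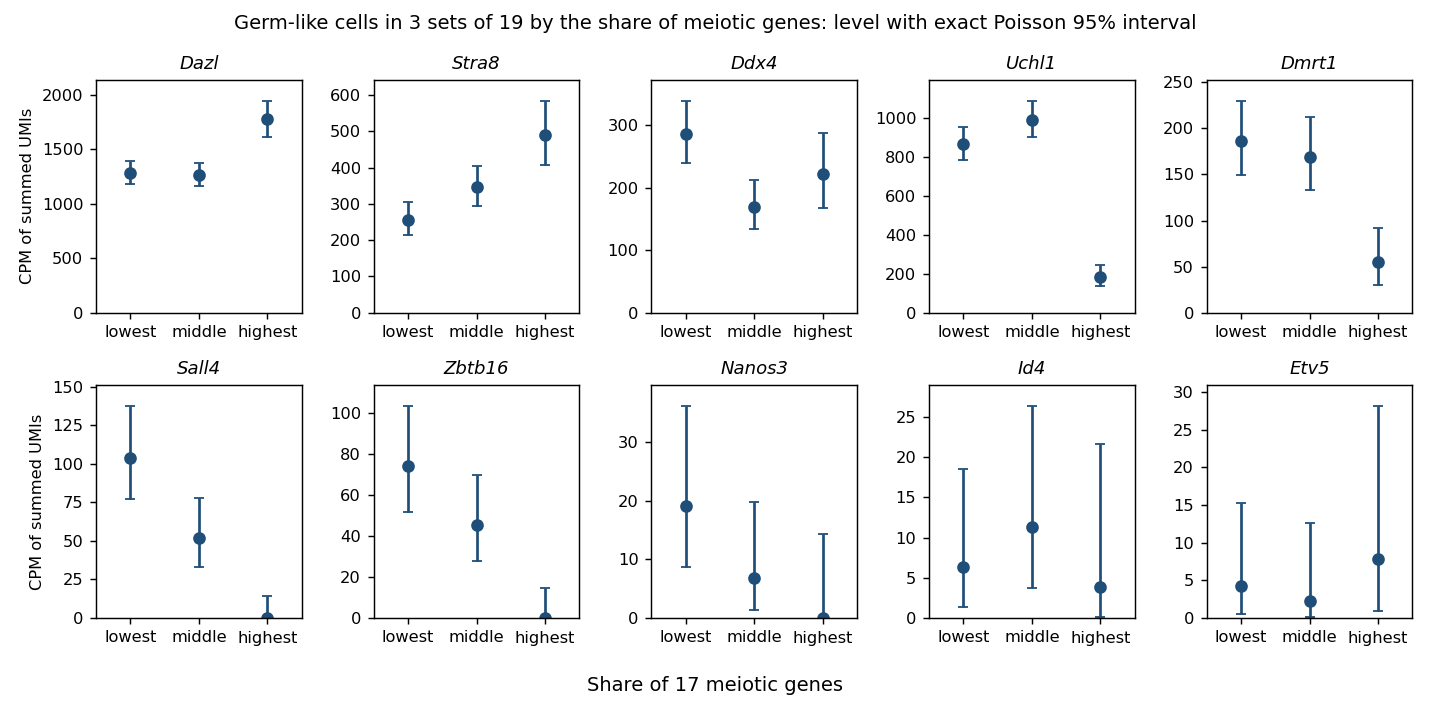
CPM of summed UMIs (points) with exact Poisson 95% intervals (bars) for the 10 genes in the 3 sets of 19 germ-like cells, from the lowest to the highest share of meiotic genes. Each panel has its own linear axis from 0. Uchl1 stands at 867, 989 and 183 CPM from left to right, and Stra8 at 256, 346 and 490.4 CPM.

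The genes were found together in single germ-like cells. Each of the 57 cells carried between 2 and 10 of the 10 genes, with a median of 6, and 1 cell carried all 10. Of the 19 germ-like cells with Zbtb16, 16 also carried Stra8 and 16 Sall4. The share with Sall4 was 84.2% (60.4 to 96.6) of Zbtb16 carriers and 28.9% (15.4 to 45.9) of the 38 cells without Zbtb16, with median depths of 25078 and 16936 UMIs. The share with Stra8 was 84.2% (60.4 to 96.6) of Zbtb16 carriers and 89.5% (75.2 to 97.1) of the others. Genes known from the undifferentiated state and Stra8 were thus read in the same cells.

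Over all 12169 kept cells 58 carried both Dazl and Ddx4, of which 51 were germ-like and 5 Sertoli-like. Of the 83 carriers of Ddx4, 69.9% (58.8 to 79.5) carried Dazl, against 1.96% (1.72 to 2.22) of the 12086 cells without Ddx4. At least 5 of the 10 genes were seen in 71 cells, of which 41 were germ-like and 30 Sertoli-like. No cell outside the germ-like class carried more than 6.

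With every cell thinned to 1000 UMIs, Dazl was seen in 44 of 57 germ-like cells (77.2%), Uchl1 in 25, Stra8 in 12, Dmrt1 in 11 and Ddx4 in 10. Among 3240 Leydig-like cells at the same depth Dazl, Ddx4 and Id4 were each seen in 1, and Stra8, Dmrt1 and Sall4 in 0. Unthinned shares were higher, at 100% for Dazl and 87.7% for Stra8 in germ-like cells, with median depths of 19703 UMIs in germ-like and 15276 in Leydig-like cells.

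Somatic expression was clearest in Sertoli-like cells. Against the other cells without the germ-like ones, 5 of the 9 genes measured were at least 4-fold higher in Sertoli-like cells and 2 at least 4-fold lower. The shares over 16583 genes were 11.6% higher and 16.2% lower, and the median log2 ratio was 3.01 over the 9 genes and 0.17 over all. Dmrt1 was 452-fold higher (250 to 910), Uchl1 82.9-fold (74.2 to 92.8), Dazl 53.8-fold (39.2 to 75.3), Id4 8.06-fold (7.05 to 9.22) and Stra8 15.6-fold (4.51 to 60.8), the last from 8 UMIs against 5. Those 8 UMIs of Stra8 all lay in the 388 Sertoli-like cells with 1 or more germ cell markers. Zbtb16 was lower at 0.113 (0.0717 to 0.171) and Nanos3 at least 5.08-fold lower, with its 0 UMIs in Sertoli-like cells taken as 3 and no error on the other count. The Zbtb16 value differed between the clusters of the class: 3 of its 23 UMIs lay in cluster 7, at 0.401 CPM (0.0826 to 1.17), and 20 in cluster 8, at 17.1 CPM (10.4 to 26.3), against 23.4 CPM in the other somatic cells. Cluster 8 alone was not past the rule for Zbtb16.

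Dazl in Sertoli-like cells rested on few molecules in many cells. It had 253 UMIs in 193 of 1174 cells, 156 of them with 1 UMI and 37 with 2 or more, at most 6. The level was 29.2 CPM (25.7 to 33.0) in Sertoli-like cells and 0.273 CPM (0.149 to 0.458) in Leydig-like cells. At 10000 UMIs a cell it was seen in 25.5% (21.5 to 29.8) of 447 Sertoli-like cells and 0.317% (0.145 to 0.601) of 2839 Leydig-like cells, with shallower cells left out. For each UMI of Ddx4 there were 6.07 UMIs of Dazl (5.33 to 6.94) in germ-like cells, 28.1 (14.6 to 62.2) in Sertoli-like cells and 0.824 (0.376 to 1.78) in Leydig-like cells. The proportion of the 2 genes thus was not the same in the 3 classes.

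The 30 germ cell markers summed to 88.9 CPM in Sertoli-like cells, against 21.2 CPM in Leydig-like cells and 5824.5 CPM in germ-like cells. Tdrd1 at 27.0 CPM and Tdrd9 at 16.9 CPM were the highest of the 30 in Sertoli-like cells, so the sum does not speak for the whole list. In the 786 Sertoli-like cells with 0 of the 30 markers Dazl was at 26.2 CPM (21.3 to 32.0), Uchl1 at 335 CPM (316 to 354) and Dmrt1 at 50.5 CPM (43.6 to 58.3). Stra8 had 0 UMIs in these cells and Ddx4 had 3. In the 388 Sertoli-like cells with 1 or more markers Dazl stood at 31.4 CPM (26.7 to 36.8). The split is also one by depth, with a median of 1304 UMIs in the 786 cells and 13460 in the 388. Thinned to 10000 UMIs, Dazl was seen in 42 of 172 cells without a marker (24.4%, 18.2 to 31.5) and 68 of 275 with one (24.7%, 19.7 to 30.3).

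The Sertoli-like class held 2 clusters that differ in depth. Cluster 7 had 497 cells with a median of 14378 UMIs, and cluster 8 had 677 cells with a median of 933. Dazl stood at 30.04 CPM (26.2 to 34.2) in cluster 7 and 23.9 CPM (15.9 to 34.5) in cluster 8, which overlap. Uchl1 was 366 CPM (352 to 380) in cluster 7 and 214 CPM (188 to 242) in cluster 8, and Dmrt1 64.9 CPM (59.2 to 70.9) and 18.8 CPM (11.8 to 28.4). Uchl1 was seen in 438 of the 497 cells of cluster 7 and 139 of the 677 cells of cluster 8.

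**Figure D4:**
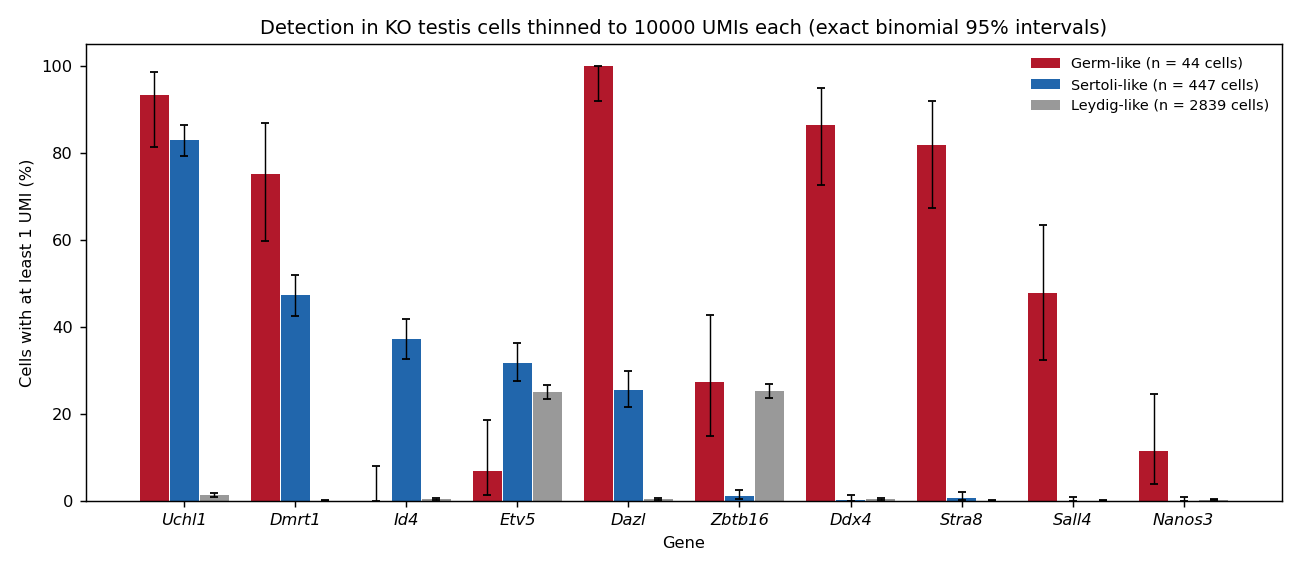
Share of cells with at least 1 UMI (bars, %) for the 10 genes in germ-like, Sertoli-like and Leydig-like cells of the KO testis, each cell thinned to 10000 UMIs and shallower cells left out, with exact binomial 95% intervals. Dazl is seen in all 44 germ-like, 25.5% of Sertoli-like and 0.317% of Leydig-like cells, while Zbtb16 is seen in 27.3%, 1.12% and 25.2%.

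The genes most like each of the 10 over the 13 classes were found by Pearson correlation of log2(CPM + 1), a description over classes of 1 library. Rare genes enter it on the same footing, such as Gramd2 with 30 UMIs and Ntf5 with 35. A single UMI in a small class counts as well: the 1 UMI of Stra8 in erythroid-like cells enters as 15.2 CPM. For Sall4 they were Mageb4, Pet2 and Fthl17e, with r of 0.9999 to 0.9996. For Ddx4 they were Mael, Wfdc15a and Gramd2 (0.9987 to 0.9985), and for Stra8 Tuba3a (0.99), Hormad1 (0.96) and Cox7b2 (0.91). Dazl ran with Asb9, Luzp4 and Rec8 (0.97) and Dmrt1 with Ntf5 (0.99), Tdrd1 and Tdrd9 (0.98), all 6 highest in germ-like cells. Uchl1 ran with Nr6a1, Atp8b5 and Zcchc12 (0.93 to 0.92).

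Id4 ran with Ctxn1 (0.94), Chmp4c (0.92) and Spaar (0.91), and Nanos3 with Gjc1 (0.96), Dbn1 (0.95) and Erbb2 (0.93). Etv5 ran with Cd302 (0.93), Lrp1 (0.92) and Pla2g4a (0.91), and Zbtb16 with Xpnpep3 (0.85) and Arhgap35 (0.82). Of the genes named here for Id4, Nanos3, Etv5 and Zbtb16, 3 were highest in germ-like cells, Xpnpep3, Arhgap35 and Erbb2. Among the 10 genes themselves the highest value was for Sall4 and Ddx4 (0.99), and the lowest was for Etv5 and Stra8 (-0.80).

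Counts over related pathways are read against the 15.4% of all genes that were higher and the 15% that were lower in germ-like cells. Of 13 measured genes of GDNF, FGF and KIT signalling 2 were at least 4-fold higher in germ-like cells, the receptors Ret and Fgfr3, named after their values were seen, and 7 were lower. Wnt6, Cxcl12 and Kitl, secreted by somatic cells, had 17.1, 7.68 and 7.68 CPM in germ-like cells, against 237, 172 and 147 CPM in the others, and the receptor Kit had 65.7 CPM in germ-like cells and 198 CPM in the others. Of 12 measured genes of the retinoic acid pathway 1, Crabp1, was higher and 4 were lower, and in both pathways the share of higher genes was near or under that background. Aldh1a1, which makes retinoic acid, stood at 108 CPM in germ-like cells and 1670 CPM in the others, and Cyp26b1, which breaks it down, at 6.83 CPM in germ-like cells and 317 CPM in the others. Rxra, a retinoid receptor, was not past the rule, at 28.2 CPM in germ-like cells and 49.8 CPM in the others.

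Of 11 genes of germline gene repression and DNA methylation 5 were higher in germ-like cells and 0 lower, with a median log2 ratio of 1.83. Over all genes 15.4% were higher and 15% lower. The 4 with most UMIs, Trim28, Mga, Max and Dnmt3a, were not among the 5, with ratios of 3.26, 3.56, 0.991 and 2.25. Of 19 measured relatives of the 10 genes 5 were higher and 5 lower, beside the same 15.4% and 15% over all genes. Id2 and Id3 stood at 12.8 and 35.0 CPM in germ-like cells, against 246 and 518 CPM in the others, and Zbtb20 at 125 and 535 CPM. Boll, a relative of Dazl named after its values were seen, had 45.2 CPM in germ-like cells and 0.182 CPM in the others. Nanos2 had 0 UMIs in all kept cells, where 3 UMIs would be 0.0317 CPM.

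Between libraries, 9 of the 10 genes were at least 4-fold higher in the KO testis than in the KO cauda and 0 lower, while 19.6% of 18719 genes were past the rule as higher and 11.4% as lower. In bulk sums fewer cells of a type and less RNA per cell cannot be told apart, and tissue cannot be told apart from library. Dazl had 2877 UMIs, 21.3 CPM (20.6 to 22.1), in the KO testis and 7 UMIs, 0.167 CPM (0.0672 to 0.345), in the KO cauda, a ratio of 128 (61.9 to 318). Uchl1 had 41.8 CPM (40.7 to 42.9) in the KO testis and 1.05 CPM (0.764 to 1.41) in the KO cauda, a ratio of 39.7 (29.6 to 54.8). Stra8 and Ddx4 had ratios of 26.6 (12.1 to 72.7) and 25.5 (11.6 to 69.9) against 6 UMIs each. Dmrt1 had 917 UMIs in the KO testis and 1 in the KO cauda, a ratio of 285 (51.0 to 11261). Sall4 had 111 and 2, a ratio of 17.2 (4.66 to 144).

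Etv5, Nanos3, Id4 and Zbtb16 had the lowest ratios of the 10 genes. The testis over the KO cauda was 7.98 (6.86 to 9.35) for Etv5, 7.35 (3.80 to 16.3) for Nanos3 and 4.51 (3.61 to 5.72) for Id4. For Zbtb16, which was not past the rule, it was 3.14 (2.79 to 3.56), with 22.0 CPM in the KO testis and 6.999 CPM in the KO cauda.

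In the chimera cauda the 10 genes were sparse, from 0 UMIs for Dmrt1 and Sall4 to 67 for Etv5. Of 8 genes measured 2 were at least 4-fold higher than in the KO cauda, Ddx4 and Stra8, and 0 lower, with 10.1% of 16027 genes past the rule as higher and 1.88% as lower. Ddx4 had 18 UMIs, 3.34 CPM (1.98 to 5.27), in the chimera cauda and 6 UMIs, 0.143 CPM (0.0526 to 0.312), in the KO cauda, a ratio of 23.3 (8.85 to 71.6). Stra8 had 8 UMIs, 1.48 CPM (0.640 to 2.92), against 6 UMIs, a ratio of 10.3 (3.15 to 36.2). Dazl had 2 UMIs in the chimera cauda and 7 in the KO cauda, with a ratio of 2.22 (0.225 to 11.6). With the KO cauda thinned to the chimera total, Ddx4 was past the rule as higher, Stra8 was not, and Nanos3 was past it as lower. The Nanos3 call rests on few UMIs. Without thinning it had 1 UMI in the chimera cauda and 9 in the KO cauda, a ratio of 0.862 (0.0197 to 6.22).

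The barcodes shared with the KO cauda separate some of these genes. All 18 UMIs of Ddx4, both of Dazl, all 8 of Id4 and 19 of 20 of Uchl1 lay in chimera barcodes that are not barcodes of the KO cauda. Zbtb16 and Etv5 lay mainly in the shared ones, with 35 of 44 and 45 of 67 UMIs. Without the shared barcodes 3 genes were past the rule as higher, with 12.5% of 15154 genes past it as higher and 2.94% as lower: Ddx4 at a ratio of 56.5 (21.5 to 174), Stra8 at 18.8 (5.03 to 70.4) and Uchl1 at 8.13 (4.48 to 14.2). Zbtb16 then stood at 4.05 CPM (1.85 to 7.68) in the chimera cauda, against 6.999 CPM (6.22 to 7.85) in the KO cauda.

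Among chimera barcodes with at least 500 UMIs Ddx4 was the gene past the rule, with 8 UMIs and a ratio of 18.97 (5.77 to 66.3), while 5.76% of 14818 genes were past it as higher and 3.05% as lower. Dazl had 0 UMIs in them, which allows up to 1.02 CPM. A cluster of 26 chimera barcodes with the sperm genes Crisp2, Oaz3, Smcp and Pgk2 among its 10 leading genes, named after their values were seen, held 1 of the 8 UMIs of Ddx4 in kept cells and 0 of the other 9 genes in 34734 UMIs, where a count of 0 allows up to 86.4 CPM. A level of Dazl below that was not detectable at this depth. The other 7 UMIs of Ddx4 lay in 4 of the 71 cells of cluster 2, an unnamed cluster that raised 6 of 6 B lymphocyte markers, at 7.94 CPM (3.19 to 16.4).

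**Figure D5:**
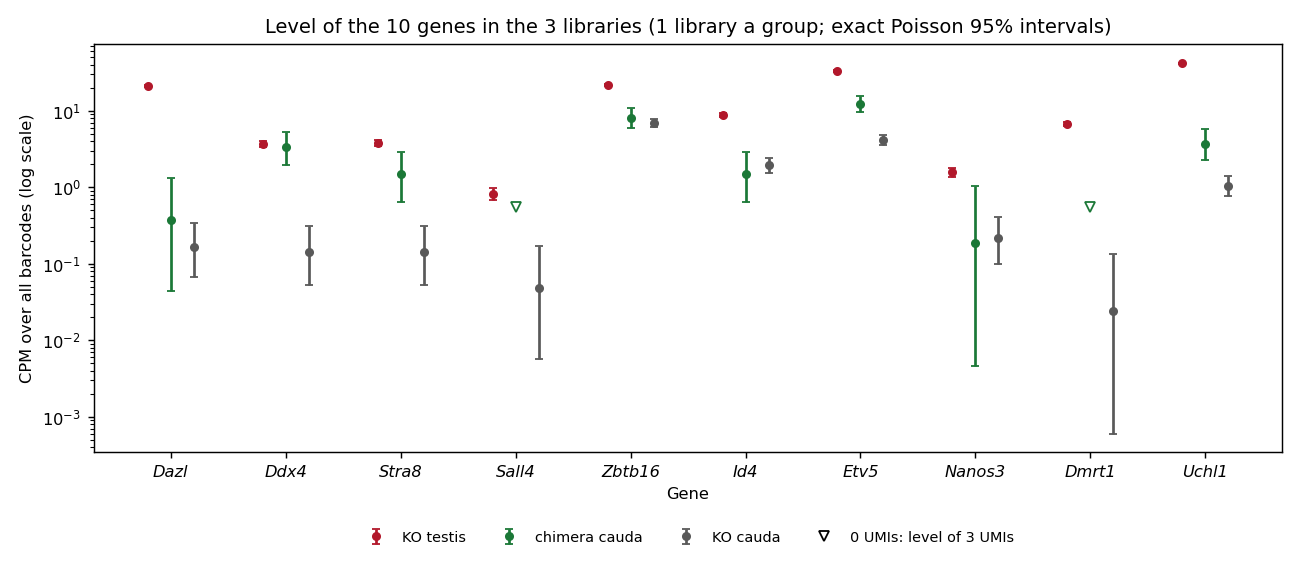
CPM over all barcodes (points, log axis) with exact Poisson 95% intervals for the 10 genes in the KO testis, chimera cauda and KO cauda, 1 library a group, with open triangles at the level of 3 UMIs where none was counted. Over all barcodes the KO testis is highest for each gene, at 21.3 CPM for Dazl, while for Ddx4 its 3.66 CPM lies within the chimera interval of 1.98 to 5.27 and below the 8.10 CPM (4.80 to 12.8) of the chimera barcodes that are not in the KO cauda.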

How the data were processed

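Single-cell 3′ RNA libraries of 1 KO testis, 1 chimera cauda and 1 KO cauda were analysed. The authors deposited raw UMI counts per gene and barcode, with barcode and feature lists. Per the file headers the chimera counts came from Cell Ranger 4 and both KO counts from Cell Ranger 6.1.2, so that version cannot be told apart from group. Cell Ranger 6, the genome build GRCm38.p6 and Seurat 4.2.1 are listed, per the submitters' processing notes. The strand setting of the counting is not given in the sources used here.

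Barcodes with at least 500 UMIs, at least 200 genes and at most 20% mitochondrial UMIs passed. Doublets were marked by simulated pairs (30 neighbours, 0.8% per 1000 cells) and removed: 1493 of 13662 barcodes of the KO testis. Cells were clustered without the 10 genes (2000 variable genes, 30 components, 15 neighbours, Leiden resolution 0.5) with Python 3.11.15, scanpy 1.11.5, igraph 0.11.9, scikit-learn 1.9.0, numpy 2.4.6 and scipy 1.17.1. A cluster was named X-like from marker lists, with at least 3 markers and at least 50% of those measured raised 2-fold. It stayed unnamed where its depth was low and none of those markers was among its 10 leading genes. The same held where another type had more markers among those leading genes. Raw counts were summed per library or class and given as CPM with 95% intervals. A gene was measured where it had more than 3 UMIs on either side, leaving out a 0 whose floor of 3 UMIs exceeds the level on the other side, which refines the rule as first written. The ratios were checked on simulated data.

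Named genes were the 10 genes, the 3 most like each over classes of at least 20 cells (genes with at least 30 UMIs), and the 4 of each list with most UMIs. Some genes that this rule takes are not reported here. Others are said to be chosen after their values were seen. The genes and lists were chosen with earlier results of these data known. Bhmg1 and Daz2, of the lists, had no row. With 1 library a group no test was run. The alternatives changed the filters, the doublet step, the clustering, the germ-like rule, the fold and the barcodes used.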

Additional observations from a re-analysis of the deposited data

Results flagged for a closer look

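Dazl and Ddx4 were read in KO testis barcodes removed as doublets, which the comparisons of cell classes leave out and the sums over all barcodes include. Dazl had 843 UMIs there, 39.6 CPM (37.0 to 42.4), against 20.3 CPM in kept cells. Ddx4 had 172 UMIs there, 8.08 CPM (6.92 to 9.38), against 3.17 CPM in kept cells. Both drew attention because the levels lie above the limit that a count of 0 allows, with no control library of the same tissue. Of these UMIs 782 of Dazl and 159 of Ddx4 lay in the 39 barcodes with at least 5 germ cell markers.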

How the results depend on the processing

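No paired analysis was possible because each group has 1 library. The number of germ-like cells, 57, was 141 with doublets kept and 103 where at least 3 germ cell markers defined them, and the cause was not tested. Of the 141, 39 had been removed as doublets and 45 were kept cells with a median of 836 UMIs and 1 marker. The chimera cauda against the KO cauda had 2 of the 10 genes past the rule, 1 with at least 500 UMIs (Ddx4) and 4 at 2-fold (Etv5, Stra8, Uchl1 and Ddx4). With the KO cauda thinned it had Ddx4 higher and Nanos3 lower, where Nanos3 had 1 UMI in the chimera cauda. Ratios of that comparison crossed 1 for genes not past the rule: without the shared barcodes Zbtb16 was 0.578 in place of 1.17, Id4 1.84 in place of 0.757 and Nanos3 2.09 in place of 0.862, and with at least 500 UMIs Uchl1 was 0.970 in place of 3.53. The number higher in germ-like cells was 7 in all 6 alternatives of filter, cluster or cell rule, 6 by the mean over cells (without Nanos3) and 8 at 2-fold. Levels in germ-like cells stayed within their interval in 48 of the alternatives' values and moved in 22. Somatic classes moved too: with a mitochondrial limit of 10% there were 227 Sertoli-like and 1153 Leydig-like cells, and at Leiden resolution 1.0 Sertoli-like cells were in clusters of 497 and 260, with 358 cells of low depth in an unnamed cluster. Depth limits Nanos3, Id4 and Etv5 in germ-like cells, with 12, 9 and 5 UMIs.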
